A study of Rattus norvegicus with 8 samples.

Results

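Cholesterol synthesis was followed through 8 genes, Hmgcs1, Idi1, Fdps, Fdft1, Sqle, Lss, Insig1 and Srebf2, taken by their symbols from the 32754 genes of each library. The set is named for synthesis and uptake, but none of the 8 encodes an uptake receptor, so uptake genes are given from a separate list. Immune cells were isolated from the livers of 4 male Han Wistar rats, and part of the cells of every animal was sequenced fresh while another part was sequenced after DMSO cryopreservation and 3 weeks of storage, which gave 8 libraries of the Chromium Single-Cell 3′ v2 kit. The CSAA animals NC1 and NC2 received an amino acid-defined diet with sufficient choline, and the CDAA animals PC1 and PC2 received the choline-deficient counterpart. The 4 groups of 2 libraries were therefore CSAA fresh, CDAA fresh, CSAA DMSO and CDAA DMSO. No transgene or further treatment is named in the labels, each library came from a single animal, and the day of processing and preservation cannot be told apart.

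Cholesterol is built from acetyl-CoA by the mevalonate pathway, in which isoprenoid units are joined to squalene and squalene is closed to the first sterol. When sterols in the endoplasmic reticulum run low, Scap escorts the precursor of the transcription factor SREBP2 to the Golgi, where proteases cut it. The released part enters the nucleus and switches on most enzymes of the pathway. When sterols are abundant, Insig proteins hold the Scap and SREBP2 complex back, and oxysterols turn on efflux genes through liver X receptors.

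The promoters of 3 members are shown because Hmgcs1 had the largest lineage difference among the members tested in fresh cells and Idi1 and Fdps were the members called after preservation. Each sequence covers 300 bases around the start of the gene, mostly before it, and was taken from RefSeq on build GRCr8, at chr2:53382054-53382353 on the plus strand for Hmgcs1, chr17:66547475-66547774 on the minus strand for Idi1 and chr2:176804767-176805066 on the minus strand for Fdps. Capitals mark the letters CCAAT and GGGCGG, the core motifs of NF-Y and Sp1, or their reverse complements.
Hmgcs1: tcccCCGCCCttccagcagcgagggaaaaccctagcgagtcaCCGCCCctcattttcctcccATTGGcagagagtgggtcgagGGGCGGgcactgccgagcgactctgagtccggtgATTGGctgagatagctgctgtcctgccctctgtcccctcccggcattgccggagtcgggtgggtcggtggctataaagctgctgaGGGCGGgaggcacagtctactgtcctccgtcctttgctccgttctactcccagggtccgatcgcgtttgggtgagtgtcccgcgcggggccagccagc
Idi1: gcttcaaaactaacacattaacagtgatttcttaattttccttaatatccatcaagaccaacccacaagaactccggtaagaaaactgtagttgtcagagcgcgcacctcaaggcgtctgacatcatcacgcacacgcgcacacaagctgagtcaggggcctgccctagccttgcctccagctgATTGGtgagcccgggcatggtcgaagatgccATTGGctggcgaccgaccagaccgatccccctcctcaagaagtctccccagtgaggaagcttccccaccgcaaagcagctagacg
Fdps: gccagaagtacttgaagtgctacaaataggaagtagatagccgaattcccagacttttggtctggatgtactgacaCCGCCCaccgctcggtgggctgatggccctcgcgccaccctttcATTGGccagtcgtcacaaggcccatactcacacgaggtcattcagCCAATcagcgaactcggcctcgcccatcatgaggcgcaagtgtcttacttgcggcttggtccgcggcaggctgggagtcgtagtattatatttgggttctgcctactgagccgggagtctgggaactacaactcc
Promoters of 6 of the 8 members were matched by symbol, and no sequence was used for Sqle and Fdft1. Searched on both strands, CCAAT was found in 6 of 6 members and in 12549 of 33469 promoters of the same length (37.5%). The letters GGGCGG were found in 5 of 6 members, with Idi1 as the exception, against 11066 of all promoters (33.1%). The sterol response motif TCACNCCAC was found in 0 of 6 members and in 374 of all promoters (1.12%), which says only that these letters are not in this window. Matches of different motifs did not overlap in the 6 sequences, and a match is a description of letters, not a bound site.

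Cells were defined as barcodes with at least 500 UMIs (unique molecular identifiers, counted transcripts), of which each library held 3673 to 4771, with library totals of 18338700 to 26471843 UMIs and medians of 3339 to 4309 UMIs per cell. Lineages were gated as cells with at least 1 UMI of exactly 1 of 7 markers, namely Clec4f (Kupffer cells), Clec4a3 (Clec4a3 myeloid cells), Vcan (classical monocytes), Siglech (plasmacytoid dendritic cells), Cd79a (B cells), Cd3e (T cells) and Ncr1 (NK cells). Between 35.0% and 41.2% of cells fell into exactly 1 gate, while 33.3% to 45.9% carried markers of 2 or more gates and were left out of the lineage values. No doublet caller was run, and doublets and free RNA among these cells were not told apart. Any pair of libraries shared 13 to 36 cell barcodes, against 18.3 to 29.7 for random draws from the barcode list.

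The gates were checked against further markers of the same cell types. The Siglech gate held 2.76 times the mean level of the other gates for its check list (Irf8, Tcf4, Runx2, Ccr9, Bst2, Irf7), and 6 of these 6 genes were called higher there. The Clec4a3 gate was weakly separated, since its list reached 1.53 times the mean of the other gates and 0.595 times the level in the Vcan gate, with Lyz2 in both lists. The other gates held 3.32 times (Ncr1) to 17.3 times (Cd79a) the mean of the rest, and in sums of cells fewer cells of a type and less RNA per cell cannot be told apart. The Clec4f gate rested mostly on cells with 1 UMI of its marker. Fresh NC1, NC2, PC1 and PC2 held 13 of 38, 15 of 78, 7 of 47 and 2 of 49 gated cells with at least 2. Its Kupffer check list was at 8.13 times the mean of the other gates, and the NK check list was at 5634 CPM there, the highest of any gate but Ncr1.

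Free RNA was measured in barcodes with 1 to 100 UMIs, which held 6464 UMIs of the 8 genes over the 8 libraries. In 36 of 64 pairs of member and library the level in cells was above that in free RNA, and the free level ranged from 0.424 to 1.41 times the level in cells. Only Sqle was above its free level in 8 of 8 libraries. Fdps was above its free level in 2 of 8 libraries and Srebf2 in 1 of 8, with free levels of 132 to 186 and 53.6 to 93.4 CPM. A level in a gate, low or high, is therefore not by itself evidence of expression in that cell type. The part of free RNA in the lineage differences was not tested.

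**Figure D1:**
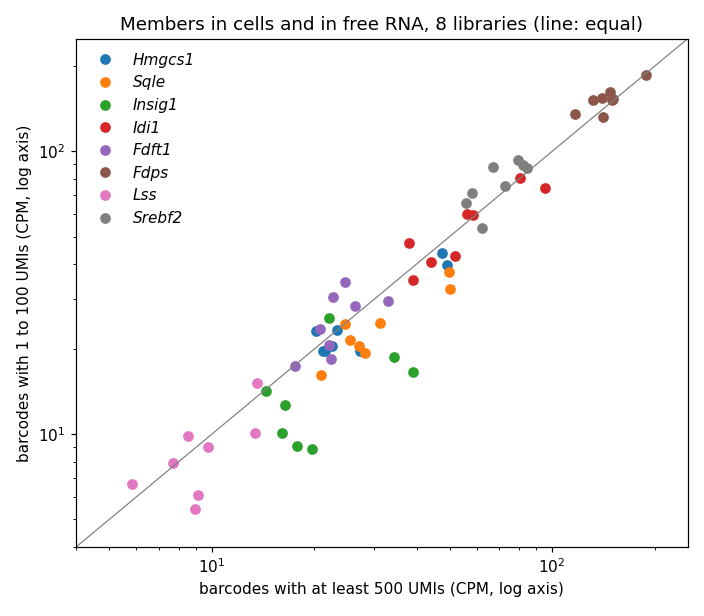
Level of the 8 genes in cells (x axis, CPM, log axis) against the level in barcodes of 1 to 100 UMIs (y axis, CPM, log axis), with 1 point per gene and library and a line of equal levels. The points lie along the line, with 36 of 64 below it, and Insig1 and Sqle mostly on the side of the cells.

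Over all cells the animal NC1 stood apart: its fresh library had the highest level of 8 of 8 members among the fresh libraries, and its preserved library had the highest level of 8 of 8 among the preserved libraries, which held for 16.6% of 11505 genes tested. Values are given below in CPM (counts per 1000000 UMIs of cells), always in the order NC1, NC2, PC1 and PC2.

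The first enzymes carry acetyl units to isoprenoid building blocks. Hmgcs1 (ENSRNOG00000016552), which condenses acetyl-CoA to HMG-CoA, was at 47.5, 22.6, 21.2 and 20.3 CPM in fresh cells and at 49.1, 27.3, 23.3 and 21.5 CPM after preservation. NC1 was far above the other animals in both states, and the diets did not overlap in either. Each animal had a higher preserved than fresh level. Idi1 (ENSRNOG00000016690), which interconverts both isopentenyl diphosphate isomers, was at 80.3, 37.9, 39.2 and 51.8 CPM fresh and at 95.6, 58.7, 44.2 and 56.4 CPM preserved. Every animal was higher after preservation, and the diets overlapped in fresh but not in preserved cells.

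Fdps (ENSRNOG00000043377), which makes farnesyl diphosphate, was the member with the most UMIs, with 149.9, 117, 140.6 and 141.2 CPM fresh and 188.3, 131.9, 148.1 and 150.9 CPM preserved. All 4 animals were higher after preservation, and the diets overlapped in both states. Fdft1 (ENSRNOG00000021314), which joins 2 farnesyl units to squalene, was at 26.4, 17.6, 22.1 and 20.8 CPM fresh and at 33, 24.6, 22.4 and 22.7 CPM preserved. Again 4 of 4 animals were higher after preservation, by the least in PC1.

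Sqle (ENSRNOG00000009550), which adds oxygen to squalene, was at 49.7, 20.9, 31.2 and 27.0 CPM fresh and at 50.1, 24.6, 28.3 and 25.5 CPM preserved. Both CSAA animals were higher and both CDAA animals lower after preservation. Lss (ENSRNOG00000054549), the cyclase that forms lanosterol, was the scarcest member with 140 to 289 UMIs per library, at 13.4, 9.76, 8.92 and 5.84 CPM fresh and at 13.5, 9.09, 7.68 and 8.53 CPM preserved. The diets did not overlap in either state, with the CSAA animals higher.

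Of the regulators, Insig1 (ENSRNOG00000006859), the sterol-dependent brake on SREBP2, was at 34.4, 16.4, 22.0 and 14.5 CPM fresh and at 39.1, 19.7, 16.1 and 17.8 CPM preserved. Its preserved level was higher in every animal but PC1. Srebf2 (ENSRNOG00000007400), which encodes SREBP2 itself, was at 84.2, 62.2, 79.7 and 72.8 CPM fresh and at 81.9, 55.7, 66.9 and 58.3 CPM preserved. It was the member that was lower in 4 of 4 animals after preservation. The share of all genes that moved the same way in 4 of 4 animals was not determined, so such agreement shows no trait of the members.

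**Figure D2:**
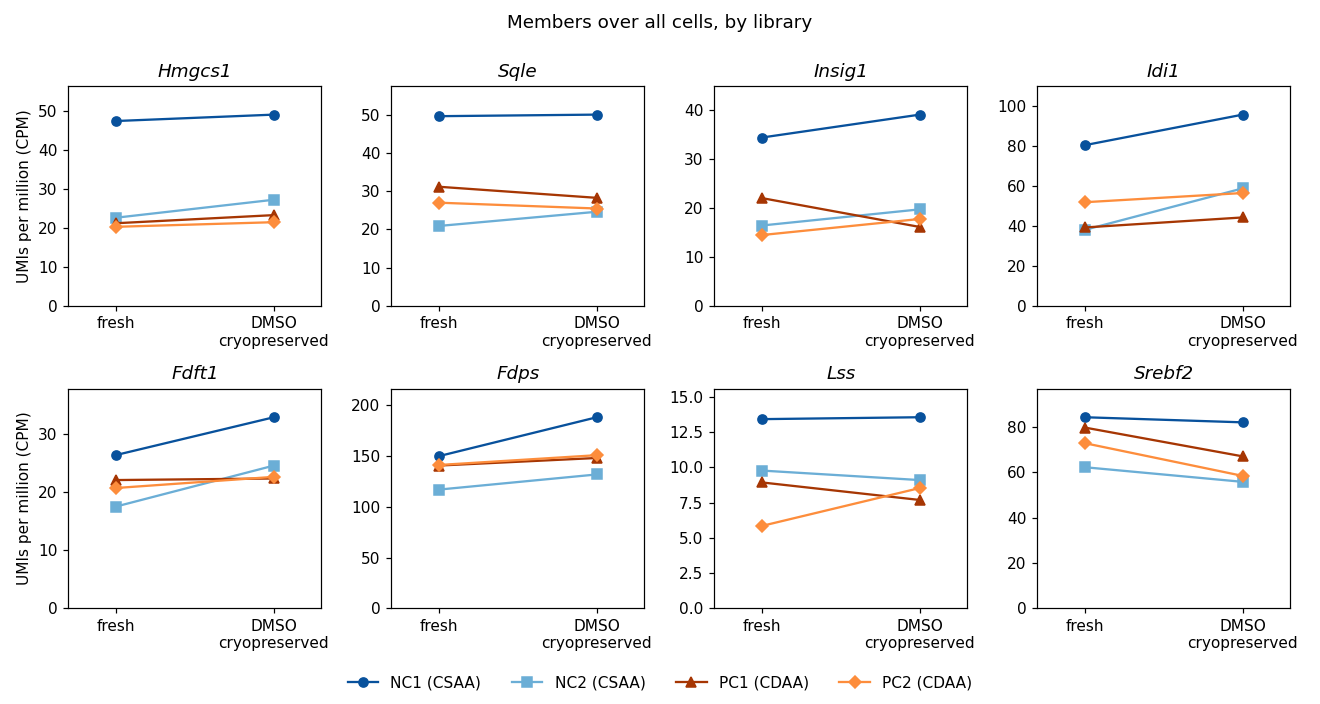
Level of each gene over all cells (y axes, CPM, from 0) in fresh and DMSO cryopreserved cells (x axes), with 1 line per animal and no error bars since each point is 1 library. NC1 is the highest line in all 8 panels, and the lines of Hmgcs1, Idi1, Fdft1 and Fdps rise in 4 of 4 animals. The share of all genes that do so was not determined.

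The lead of NC1 over the other CSAA animal differed between members. In fresh cells the ratio of NC1 to NC2 was 2.38 for Sqle, 2.12 for Idi1, 2.1 for both Hmgcs1 and Insig1, 1.51 for Fdft1, 1.37 for Lss, 1.35 for Srebf2 and 1.28 for Fdps. Summed over the 8 genes, fresh cells held 486, 304, 365 and 354 CPM and preserved cells 551, 352, 357 and 362 CPM. NC1 was the highest fresh library for 8 members in the Ncr1 gate, 6 in the Cd3e gate, 5 in the Siglech gate, 4 each in the Clec4f, Vcan and Cd79a gates and 2 in the Clec4a3 gate. The share of all genes highest in NC1 within a gate was not determined, so these counts show no trait of the members.

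Other measures of the fresh NC1 library also stood apart. Siglech-gated cells made up 10.4% of its cells, against 6.12% to 6.94% in the other fresh libraries. The early response list (Fos, Fosb, Jun, Junb, Egr1, Dusp1, Atf3) summed to 681 CPM against 318 to 344 CPM. The endothelial and stellate list summed to 195 CPM against 76.6 to 111 CPM. That sum was almost wholly Kdr at 160 CPM and Lyve1 at 34.5 CPM, both also called higher in the Siglech gate, while the defining markers Stab2 and Clec4g were under 1 CPM and Dcn, Col1a1, Col3a1 and Reln were at 0 in this library. The part of these differences in the levels of the members was not tested.

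The preservation comparison asked which of these genes differed between fresh and DMSO cryopreserved cells of the same animal. Idi1 and Fdps rose, and the other 6 members did not pass the test. Idi1 was higher by 0.34 on the log2 scale (SE 0.086, n = 4 animals, adjusted p = 0.0376, edgeR's quasi-likelihood test with Benjamini-Hochberg adjustment over all genes, animal as a block). By the same edgeR test Fdps was higher by 0.22 on the log2 scale (SE 0.058, adjusted p = 0.0447). Thus 2 of 8 members were called, where 9.07% of all 11505 genes tested were called in either direction and 4.75% were called higher.

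Fdft1 differed by 0.29 on the log2 scale (SE 0.090) without passing the edgeR test after adjustment (adjusted p = 0.0739). For Hmgcs1 the difference was 0.18 (SE 0.071, edgeR adjusted p = 0.134), and for Srebf2 it was -0.14 (SE 0.064, edgeR adjusted p = 0.197). Insig1, Lss and Sqle had log2 differences of 0.13, 0.11 and 0.054. The median of the 8 log2 differences was 0.16, beside -0.0022 over all genes tested.

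These calls were close to the threshold. Over 11 alternative settings Idi1 was called in 7, with log2 differences of 0.23 to 0.44 and adjusted p of 0.00558 to 0.724, and Fdps was called in 4, with differences of 0.15 to 0.26 and adjusted p of 0.0245 to 0.503. No member was called without the animal as a block, where 0.139% of genes were called. None was called without NC2, PC1 or PC2, where 207, 368 and 463 genes were called, and 1 was called without NC1, where 1318 genes were called.

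Other genes of the pathway were read from lists. Among other enzymes of cholesterol synthesis, 2 of 14 tested were called higher after preservation, Tm7sf2 (a sterol reductase) by 0.40 and Mvd (mevalonate diphosphate decarboxylase) by 0.25 on the log2 scale, and 0 were called lower. Of 9 genes in the list of regulators 1 was called, Mylip, lower with a log2 difference of -0.39. Mylip is a ubiquitin ligase of lipoprotein receptors and not itself a part of the SREBP step. In the uptake and transport list Stard4 (a cytosolic sterol carrier) was higher by 0.39 and Lipa (the lysosomal acid lipase) was lower with -0.33, while 7 of 9 tested did not pass. Abca1, a cholesterol exporter, was lower with a log2 difference of -0.45, the 1 call among 8 efflux and storage genes, and Scd2, a fatty acid desaturase, was lower with -0.24, the 1 call among 8 fatty acid genes.

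Several lists of other cells and states moved with preservation. Of the early response list 7 of 7 tested genes were called higher, with summed levels of 318 to 681 CPM fresh and 1947 to 4084 CPM preserved. Cycling genes were called higher for 8 of 9, with sums of 294 to 488 CPM fresh and 379 to 717 CPM preserved, and the hepatocyte list was called lower for 4 of 6 tested. The cells in the gates shifted too. In NC1, NC2, PC1 and PC2 the Siglech gate took 10.4%, 6.18%, 6.12% and 6.94% of fresh cells. After preservation it took 12.5%, 8.73%, 8.72% and 8.57%. The Ncr1 gate took 8.28%, 11.1%, 7.95% and 10.9% fresh and 4.03%, 5.03%, 7.67% and 14.3% preserved. The part of these lists and gate shares in the differences of Idi1 and Fdps was not tested.

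The diet comparison asked whether the members differed between CDAA and CSAA animals, with 2 animals a group. In fresh cells 0 of 8 members were called by edgeR or by DESeq2. Of 11772 genes 139 (1.18%) were called by edgeR and 735 by DESeq2. By edgeR 0 members had an unadjusted p under 0.05, where 19.6% of genes had one. Hmgcs1 had the lowest log2 difference of CDAA against CSAA, at -0.73 (SE 0.32, edgeR adjusted p = 0.282), followed by Lss at -0.63 (SE 0.27, edgeR adjusted p = 0.267). The other fresh differences ran from -0.46 for Insig1 through -0.35 for Idi1, -0.25 for Sqle, -0.016 for Fdft1 and 0.079 for Srebf2 to 0.10 for Fdps. Diet groups did not overlap for 2 of the 8 members, Hmgcs1 and Lss, both lower in CDAA animals, where 29% of genes tested were lower without overlap.

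In preserved cells, which came from the same animals, 0 of 8 members were called by edgeR or by DESeq2. Of 11364 genes 73 (0.642%) were called by edgeR and 400 by DESeq2. By edgeR 4 members had an unadjusted p under 0.05, where 14.6% of genes had one. Those 4 were all lower in CDAA animals, with log2 differences of -0.82 for Insig1 (edgeR adjusted p = 0.273), -0.79 for Hmgcs1 (edgeR adjusted p = 0.243), -0.65 for Idi1 (edgeR adjusted p = 0.271) and -0.38 for Fdft1 (edgeR adjusted p = 0.338). Diet groups did not overlap for 5 members, Hmgcs1, Insig1, Idi1, Fdft1 and Lss, each lower in CDAA animals, where 22.3% of genes tested were lower without overlap. Without NC2, which left NC1 as the single CSAA animal and assumed it to vary like the CDAA animals, 4 members (Hmgcs1, Insig1, Sqle and Idi1) were called lower in CDAA animals in fresh cells and likewise in preserved cells. In that setting 3.68% of 12254 genes were called lower in fresh cells and 1.52% of 11988 in preserved cells.

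The efflux list differed by diet where the members did not pass. In fresh cells 3 of 8 efflux and storage genes were called higher in CDAA animals by edgeR, namely Apoe (a lipid-carrying apolipoprotein) by 4.69 (adjusted p = 0.0226), Abca1 by 1.96 (adjusted p = 0.0196) and Nr1h3 (liver X receptor alpha) by 1.34 (adjusted p = 0.0196) on the log2 scale. In preserved cells the same genes were called, by 5.25, 2.11 and 1.63. Of the other enzymes of synthesis 0 of 14 tested and of the uptake genes 0 of 9 tested were called in either state. Markers of myeloid cells moved as well, since 2 of 7 Kupffer check markers and 2 of 5 Clec4a3 check markers were called higher in fresh CDAA libraries, and their part was not tested.

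Whether the diets responded differently to preservation was tested as an interaction. By edgeR 0 of 8 members were called, where 0.0329% of 12163 genes were called, and 1 member, Fdft1, had an unadjusted p under 0.05, where 6.29% of genes had one. The log2 interaction of Fdft1 was -0.35 (SE 0.14, edgeR adjusted p = 0.761), and that of Sqle was -0.25 (SE 0.14, edgeR adjusted p = 0.820).

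**Figure D3:**
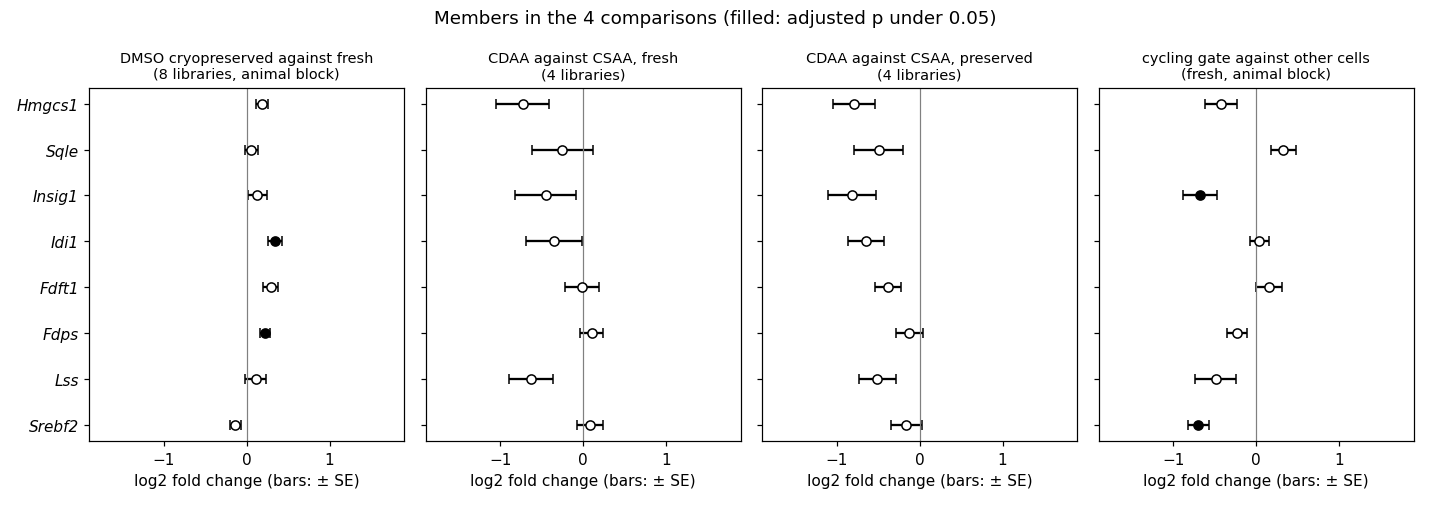
Log2 difference of each gene (x axes, points with bars of ± SE) for DMSO cryopreserved against fresh cells, CDAA against CSAA in fresh and in preserved cells, and the cycling gate against the remaining fresh cells, with filled points where the adjusted p was under 0.05. Filled points are Idi1 and Fdps for preservation and Insig1 and Srebf2 for the cycling gate, and the bars of both diet panels are wide.

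Across lineages the Siglech gate had the highest mean levels for most members. In fresh cells the Siglech gate was first in the mean of 4 animals for 7 of 8 members, with the Clec4a3 gate first for Insig1. In preserved cells it was first in the mean for 8 of 8. Within single fresh animals it led less often. It was the highest gate in 3 of 4 animals for Hmgcs1, Sqle, Idi1 and Srebf2. It was highest in 2 of 4 for Fdps and Lss, in 1 of 4 for Fdft1 and in 0 of 4 for Insig1. The Ncr1 gate was last for 3 members fresh and 4 preserved. The share of all genes with the Siglech gate first or the Ncr1 gate last was not determined, so these ranks alone show no trait of the members. For 48 of 48 neighbouring lineages in the fresh orders the ranges over animals overlapped, so that the order of neighbours was not resolved beyond their spread.

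Hmgcs1 in the Siglech gate was at 64.4, 36.7, 38.8 and 28.7 CPM in fresh cells, against 24.8, 15.4, 14.5 and 13.1 CPM in the Ncr1 gate. These 2 gates did not overlap. Idi1 was at 108, 47.4, 66.2 and 63.5 CPM in the Siglech gate, against 48.7, 27.8, 19.0 and 27.9 CPM in the Ncr1 gate. Here the ranges overlapped, but in each of the 4 animals the Siglech gate was the higher one.

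Sqle was at 62.7, 18.4, 43.4 and 37.1 CPM in the Siglech gate and at 34.4, 18.9, 13.9 and 16.8 CPM in the Ncr1 gate. NC2 was the animal without a higher level in the Siglech gate. Fdps reached 165, 129, 166 and 178 CPM in the Siglech gate and 126, 82.8, 89.8 and 93.5 CPM in the Ncr1 gate, without overlap. For Srebf2 the Siglech gate was at 95.3, 91.0, 120 and 97.2 CPM and the Ncr1 gate at 71.6, 46.1, 40.5 and 52.1 CPM, also without overlap.

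Insig1, Fdft1 and Lss were at lower levels. Insig1 was at 39.2, 16.8, 27.4 and 11.8 CPM in the Siglech gate and at 23.9, 8.87, 12.0 and 6.97 CPM in the Ncr1 gate. The ranges of Insig1 overlapped, with the Siglech gate higher in 4 of 4 animals. Fdft1 was at 29.3, 17.6, 26.6 and 21.9 CPM in the Siglech gate and at 17.2, 13.6, 15.2 and 16.4 CPM in the Ncr1 gate, without overlap. Of the 7 members that passed the filter of the lineage test 4 (Hmgcs1, Fdps, Srebf2 and Fdft1) were thus higher in the Siglech gate without overlap, where 12.7% of 6683 genes were. No comparison of this pair of gates was planned, and the Siglech gate was already first in the fresh mean for these 4 members. The count therefore adds no support. Lss, with 103 UMIs in the Siglech gates and 61 in the Ncr1 gates of the 4 fresh libraries, was at 18.2, 11.5, 20.5 and 9.55 CPM in the Siglech gate and at 11.5, 11.2, 8.22 and 6.97 CPM in the Ncr1 gate, and did not pass that filter on low counts.

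**Figure D4:**
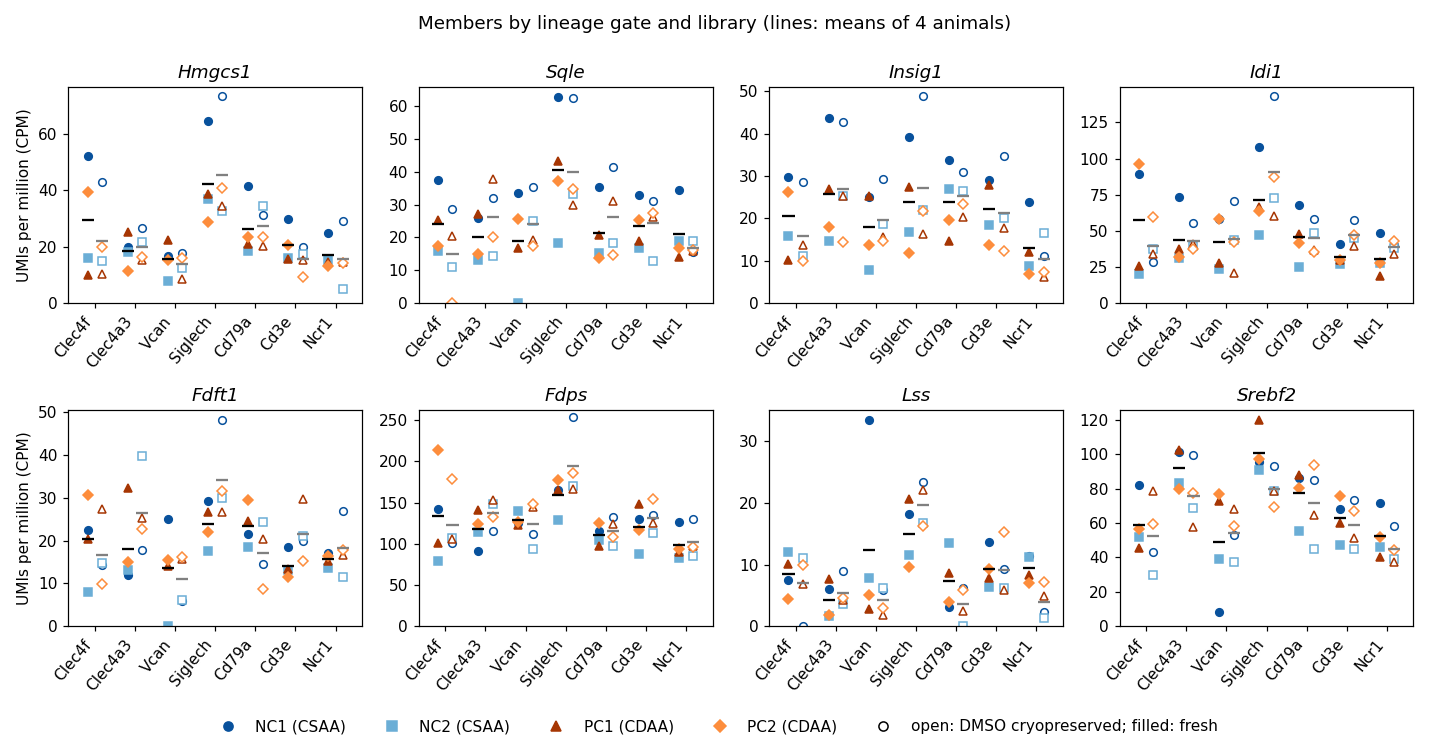
Level of each gene (y axes, CPM, from 0) in the 7 lineage gates (x axes) for each animal, with filled points for fresh and open points for DMSO cryopreserved cells and short lines for the mean of 4 animals. The Siglech gate has the highest mean line in fresh cells except for Insig1, and NC1 lies above the other animals in many gates.

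Each gate was compared with the mean of the other 6 over the fresh sums of 4 animals. Of 49 pairs of member and gate (7 members, without Lss) 12 were called, where 18.6% of the 46781 pairs of gene and gate were called. Every gate is part of the mean that the others are set against, so a high level in any gate lowers the differences of the rest. The 12 calls are therefore not independent. In the Siglech gate 5 of 7 members were called higher, where 13.7% of genes were called higher there. Hmgcs1 was higher by 0.92 on the log2 scale (SE 0.14, adjusted p = 1.69e-06), Sqle by 0.81 (SE 0.14, adjusted p = 3.16e-05), Idi1 by 0.72 (SE 0.12, adjusted p = 1.60e-05), Srebf2 by 0.54 (SE 0.11, adjusted p = 0.000141) and Fdps by 0.38 (SE 0.095, adjusted p = 0.00223), all by edgeR's quasi-likelihood test with Benjamini-Hochberg adjustment. Fdft1 differed by 0.38 (edgeR adjusted p = 0.109) and Insig1 by 0.16 (edgeR adjusted p = 0.545), without passing. The median over the 7 members was 0.54 on the log2 scale, beside 0.0029 over all genes tested.

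In the Ncr1 gate 5 of 7 members were called lower, where 17.4% of genes were called lower. Insig1 had a log2 difference of -0.86, Idi1 of -0.64, Hmgcs1 of -0.54, Srebf2 of -0.50 and Fdps of -0.40, while Sqle and Fdft1 did not pass. The median over the members was -0.50 beside 0.033 over all genes tested. In the Clec4a3 gate Srebf2 alone was called, higher by 0.41 (edgeR adjusted p = 0.00821), where 15.4% of genes were called higher. In the Cd3e gate Idi1 alone was called, lower with -0.54 (edgeR adjusted p = 0.0177), where 7.54% of genes were called lower. In the preserved libraries 0 members were called in the Clec4a3 gate and 0 in the Cd3e gate. No member was called in the Clec4f, Vcan and Cd79a gates by edgeR, nor at an unadjusted p under 0.05, where 18.2% of pairs of gene and these gates had one. The Clec4f gate held 38 to 78 cells per fresh library, mostly with 1 UMI of its marker, so that its result says little about Kupffer cells. Without NC1 or without PC2 the calls of Idi1 in the Cd3e gate (edgeR adjusted p = 0.383 and 0.0838) and of Hmgcs1 in the Ncr1 gate (edgeR adjusted p = 0.0508 and 0.0653) were lost, while the other 10 calls passed without each animal.

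The Siglech difference depended on how the gate was set and on which gates were left to compare it with. With at least 2 UMIs of the marker, or with each cell given to the marker with most UMIs, 8 of 8 members were called higher there, where 19.4% and 20.1% of genes were called higher. A strict gate, chosen after the overlap of the gates was seen, asked for at least 3 UMIs of a marker making up over 75% of gate marker UMIs. Under it 8 of 8 were called higher, with log2 differences of 0.90 to 1.53, where 25.5% of genes were called higher. Lss, which had failed the filter of the main test, was among the 8. Its strict fresh sums held 191 UMIs in the Siglech gate against 16 in Cd79a, 47 in Cd3e and 13 in Ncr1. Since it could pass the filter through its Siglech level, its calls in these settings add no support. In the preserved libraries 7 of 8 were called higher, where 16% of genes were, with Insig1 at 0.34 (edgeR adjusted p = 0.0577) as the exception. Lss was among these 7, and its call there adds no support for the same reason.

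The strict gate separated the levels further. Hmgcs1 was at 98.3, 53.5, 45.8 and 41.5 CPM in the strict Siglech gate of fresh cells and at 34.0, 13.6, 15.3 and 13.3 CPM in the strict Ncr1 gate. Sqle was at 103, 41.2, 59.4 and 60.0 CPM in the former and at 39.7, 15.6, 11 and 9.67 CPM in the latter. Neither gene overlapped between both gates, although the strict Ncr1 gate rested on 6 to 11 UMIs of Hmgcs1 and 5 to 8 of Sqle per fresh library.

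**Figure D5:**
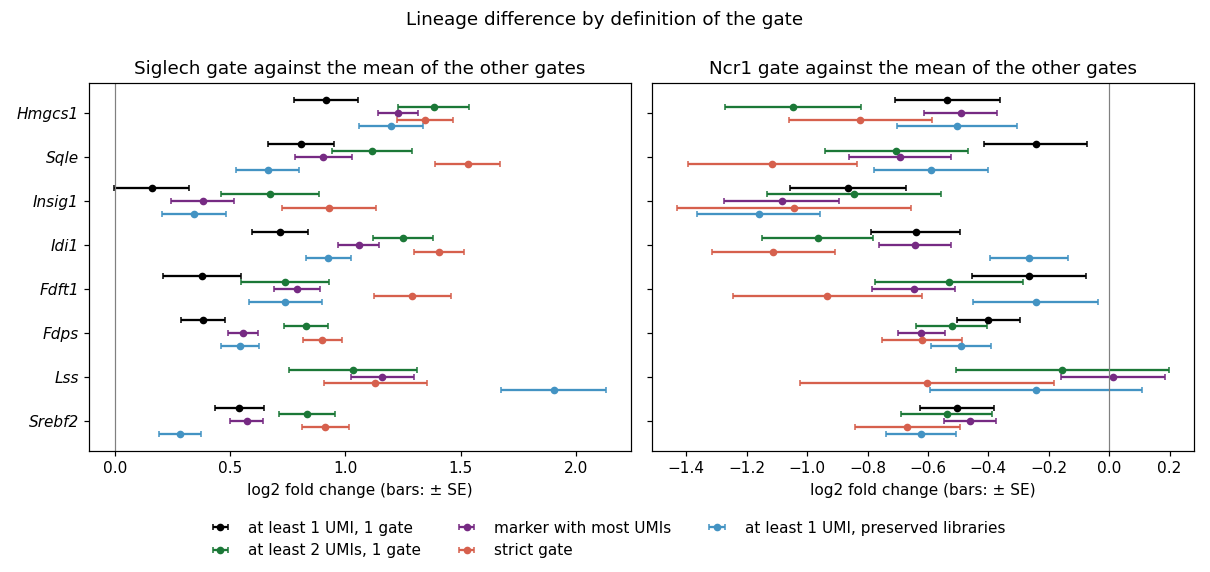
Log2 difference of each gene between 1 gate and the mean of the other gates (x axes, points with bars of ± SE) for the Siglech gate and the Ncr1 gate, under 4 definitions of the gate in fresh cells and under the main definition in preserved cells. All Siglech points lie above 0. Where a gene has a main point, the points of the 4 other settings lie at or above it, but for Sqle and Srebf2 in preserved cells. Lss has no main point. With at least 2 UMIs and in the strict gate, the gates compared are Siglech, Cd79a, Cd3e and Ncr1 only.

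The rest of the pathway was read for the Siglech gate. Of 10 other synthesis enzymes tested 5 were called higher and 0 lower, among them Mvd at 1.17 and Cyp51 (lanosterol demethylase) at 0.86 on the log2 scale. Scap, the sterol sensor that escorts SREBP2, was higher by 1.48, the 1 call among 6 regulators tested. Of 8 uptake and transport genes 3 were higher, among them Vldlr (a lipoprotein receptor) by 2.18, Scarb1 (the HDL receptor) by 0.62 and Npc1 (a lysosomal cholesterol exporter) by 0.51, and 2 were lower, among them Lrp1 (a scavenging receptor) with -0.54. Scd and Scd2, fatty acid desaturases, were higher by 1.56 and 0.79, 2 calls among 5 fatty acid genes, and 0 of 6 efflux genes were called. Beside these, 2 of 2 tested genes of the endothelial and stellate list, Kdr and Lyve1, were called higher in the Siglech gate and 1 of 1 tested hepatocyte gene lower, and their part was not tested.

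In the Ncr1 gate 6 of 8 uptake and transport genes were called lower and 0 higher. Among them Lrp1 had a log2 difference of -1.10, Lipa of -1.06, Scarb1 of -0.86, Npc1 of -0.84 and Npc2 (which hands cholesterol to Npc1) of -0.67. Of 10 synthesis enzymes 3 were lower, among them Cyp51 with -1.0. Acss2, which makes acetyl-CoA from acetate, was higher by 1.44, the 1 call among 5 fatty acid genes, Insig2 was higher by 0.66 and Nr1h3 was lower with -1.08. The cycling list was called higher for 6 of 7 tested genes in the Ncr1 gate, and its part was not tested.

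Preservation and diet were then compared within gates. For preservation 1 of 41 pairs of member and gate was called, where 2.49% of 33407 pairs of gene and gate were called, and the Clec4f gate was left out because as few as 23 cells were gated in a preserved library, under the minimum of 30. The call was Idi1 in the Cd3e gate, at 40.8, 27.0, 30.1 and 29.9 CPM fresh and 57.2, 45.4, 39.2 and 47.4 CPM preserved. It was higher after preservation in 4 of 4 animals, by 0.63 on the log2 scale (SE 0.15, edgeR adjusted p = 0.0480), and without any 1 of the 4 animals it missed the threshold (log2 differences of 0.54 to 0.67, edgeR adjusted p of 0.0721 without NC1 to 0.410 without NC2). It was also not called without the block, with at least 2 UMIs of the marker or in the strict gate, and was called when cells went to the marker with most UMIs (edgeR adjusted p = 0.0140). For diet in fresh cells 0 of 44 pairs were called by edgeR, where 0.587% of 38489 pairs of gene and gate were called, 3 pairs had an unadjusted p under 0.05, where 12.5% of pairs had one, and 4 were called without NC2, where 3.13% were.

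Dividing cells were gated by at least 2 UMIs over Mki67 and Top2a, which took 54 to 115 cells per fresh library. These cells were deeper, with medians of 7942 to 12086 UMIs against 3605 to 4309 over all cells. Srebf2 and Insig1 were called lower inside the gate, 2 of 8 members, where 11.7% of 10518 genes were called lower and 23.7% in either direction. Srebf2 was at 49.7, 53.9, 40.1 and 45.4 CPM inside and at 85.5, 62.7, 81.2 and 74.6 CPM outside the gate, a log2 difference of -0.70 (SE 0.12, edgeR adjusted p = 0.00102). The 2 sets did not overlap. Insig1 was at 13.7, 13.1, 14.2 and 12.2 CPM inside and at 35.2, 16.6, 22.4 and 14.6 CPM outside, also without overlap, a log2 difference of -0.68 (SE 0.20, edgeR adjusted p = 0.0264). Its inside levels rested on 11, 16, 12 and 18 UMIs. The lack of overlap is thus narrow, between 14.2 CPM inside in PC1 and 14.6 CPM outside in PC2. Levels were lower inside without overlap for 2 of 8 members, where 7.19% of genes were.

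Sqle was at 50.9, 22.1, 39.0 and 46.7 CPM inside and at 49.6, 20.8, 30.9 and 25.7 CPM outside the cycling gate. It was higher inside in 4 of 4 animals, with a log2 difference of 0.33 that did not pass the edgeR test (adjusted p = 0.145). Among the lists, 3 of 9 uptake genes were called lower in the cycling gate, among them Lipa with -0.70 and Npc1 with -0.58 on the log2 scale, and 2 of 14 synthesis enzymes, Mvd with -0.64 and Ggps1 with -0.60. Cell types differed between both sides, since 6 of 6 Siglech check markers were called lower and 4 of 5 tested NK check markers higher inside the gate. Within T and NK gates alone 0 members were called by edgeR in the cycling gate, with log2 differences of -0.16 for Srebf2 and -0.45 for Insig1. In fresh NC1, NC2, PC1 and PC2 only 6, 5, 1 and 2 Cd3e-gated and 4, 7, 3 and 14 Ncr1-gated cells were inside it. These are too few to tell whether the differences hold within cell types. Insig1 was also not called without NC1 (edgeR adjusted p = 0.163) or without PC1 (edgeR adjusted p = 0.0886), while Srebf2 was called without each animal.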

How the data were processed

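Single-cell libraries of rat liver immune cells were measured in 8 samples, grouped by the diet and preservation that the labels give. The authors deposited unfiltered UMI counts per gene and barcode, made with Cell Ranger 2.1.1 on reference Rnor6.0 (bcl2fastq 2.17.1.14 and STAR are also named in the submitters' processing notes). From these, barcodes with at least 500 UMIs were kept as cells, UMIs were summed per library, or per library and gate with at least 30 gated cells, and levels were expressed as CPM (counts per 1000000 UMIs). The sums, not the cells, were the replicates, and the MAST test of single cells was not repeated.

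Sums were tested with edgeR 4.0.16 (TMM scaling, filterByExpr, quasi-likelihood test) in R 4.3.3, with Benjamini-Hochberg adjustment over all genes tested and calls at an adjusted p under 0.05. The SE is the size of the log2 difference divided by the square root of F. The animal was a block in the preservation, lineage and cycling comparisons, and the pairing comes from the labels, where each animal has a fresh and a preserved library. Deviations of the same animal from its group means correlated at 0.583, 0.714, 0.612 and 0.732 over 11505 genes. The fits were tested on simulated data with known changes. Of genes changed 1.5-fold and 2-fold the preservation fit found 39 and 62 of 67, and the fresh diet fit 3 and 15 of 67. Of genes changed 4-fold the fresh diet fit found 65 of 66. In these simulations diet differences of 2-fold or less were thus mostly missed. The changed genes were drawn at random, so these shares need not hold for members with a wide spread between animals. Fresh Sqle in NC1, for example, was 2.38 times its level in NC2 on the same diet. DESeq2 1.42.0 served as an alternative, and Python 3.11.15, numpy 2.4.6, pandas 2.3.3, scipy 1.17.1 and matplotlib 3.10.9 were used for levels and plots.

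With 18338700 to 26471843 UMIs per library the members had 140 to 3398 UMIs each in the cells of a library. Members and lists were chosen with earlier results of these data known. All members were named, and of the lists (other synthesis enzymes, regulators, uptake and transport, efflux and storage, fatty acid synthesis) at most 10 genes per comparison by the smallest adjusted p, with some of these genes not reported here. Lists of hepatocytes, endothelial and stellate cells, early response and cycling genes were given beside results. Alternatives were another scaling, another test, other filters on genes and cells, other gates, a 2-fold minimum, no block and leaving out each animal.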

Additional observations from a re-analysis of the deposited data

Results flagged for a closer look

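The fresh NC1 library was far above the other 3 fresh libraries for Hmgcs1, with a gap to the next library of 0.914 of the whole range. In preserved cells the NC1 library was likewise apart for Sqle, with a gap of 0.857 of the range, and for Insig1, with a gap of 0.843. These were 3 of 16 sets of 4 libraries past Dixon's 95% critical value, where chance flags about 1 in 20 groups, and the 16 sets share animals and are not independent.

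Sqle was higher after preservation in both CSAA animals and lower in both CDAA animals. The difference between the diets was -0.25 on the log2 scale and did not pass the edgeR interaction test (adjusted p = 0.820).

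Barcodes of 1 to 100 UMIs, which entered no test between groups, held 6464 UMIs of the 8 genes over the 8 libraries.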

How the results depend on the processing

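Of 97 alternative counts of called members or pairs, 65 stayed within 1.5 times the reported count, 25 were lower and 7 higher. For preservation over all cells 2 members were called, against 1 by DESeq2, 1 without cells of 2 or more gates, 0 with a 2-fold minimum and 0 without the animal as a replicate block, where 16 of all genes were called against 1044 with the block. Leaving out an animal gave 0 to 1, with 1 without NC1 (CSAA replicate 1) and 0 without each of the others. Diet gave 0 members in fresh and in preserved cells, and 0 to 4 when an animal was left out, with 4 in each without NC2 (CSAA replicate 2). Diet within gates likewise gave 0 to 4 pairs, with 4 without NC2. The 12 of 49 lineage pairs called became 20 of 56 when cells went to the marker with most UMIs. In that setting 18092 of 58534 pairs of gene and gate were called, against 8687 of 46781 in the main one. The 12 pairs became 0 with a 2-fold minimum, 8 without the block, where 4967 of 46781 pairs were called, and 10 to 13 without 1 animal. Settings in which Lss was tested, among them without NC2 and without PC2, also counted its Siglech call, which adds no support. The pair called for preservation within gates became 4 without a filter on low counts, where 1690 of 82963 pairs of gene and gate were called. It became 0 without the block, 0 at 1000 UMIs per cell and 0 without cells of 20% or more mitochondrial UMIs. It was also 0 with a 2-fold minimum, 0 with at least 2 marker UMIs and 0 with the strict gate chosen after seeing the data. Without 1 animal it became 0 to 2, with 2 other pairs without NC1 (Srebf2 in the Siglech gate and Idi1 in the Ncr1 gate) and 0 without each of NC2, PC1 and PC2. In the cycling gate 2 members became 4 without a filter, where 2917 of 17235 genes were called, and 1 by DESeq2. They became 1 without the block, 0 with a 2-fold minimum, 1 with at least 1 cycling UMI and 0 in T and NK gates, which held few cycling cells. Without 1 animal they became 1 to 3 (1 without NC1 and 1 without PC1).

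Of the alternatives for single members 149 kept their direction and call, 5 gained and 11 lost a call, and 11 turned the direction of differences that were not called. Leaving out 1 animal gave fresh diet differences of -0.74 to 0.48 for Sqle, -0.88 to 0.15 for Insig1, -0.78 to 0.26 for Idi1 and -0.27 to 0.29 for Fdft1, each above 0 without NC1 (for Fdft1 also 0.030 without PC2), and of -0.054 to 0.27 for Fdps and -0.11 to 0.29 for Srebf2, both below 0 without NC2. Without cells of 2 or more gates Fdft1 was at 0.20, and with fresh and preserved cells summed per animal Srebf2 was at -0.026. Preservation differences without 1 animal ran from -0.025 (without NC2) to 0.096 for Sqle and from -0.032 (without PC2) to 0.19 for Lss. The cause was not tested. With 2 animals a diet group, the diet differences could not be separated from differences between animals, such as that between NC1 and NC2 within the CSAA diet. Lss, with 140 to 289 UMIs per library, was too scarce for the lineage test in the main gates.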

Other observations

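The genes whose fresh levels ran most like the mean of the 8 members were listed over 28 sums of 7 gates and 4 animals, which share animals, libraries and free RNA. By Pearson correlation of log2(CPM + 1) over 6676 genes, the highest were Zmiz2 (0.778), Pacsin1 (0.765), Smim5 (0.760), Tex2 (0.751), Pdia5 (0.747), Kdr (0.746), Bloc1s2 (0.739) and Serp1 (0.739). After the mean of each gate was subtracted, other genes led, with Junb (0.808), LOC100909712 (0.775), Rgs14 (0.769), Gsk3b (0.767), G0s2 (0.765), Tango2 (0.75), AABR07002788.1 (0.747) and Emc6 (0.747). Junb, an early response transcription factor, belongs to the list that summed highest in the fresh NC1 library.

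Among the 28 pairs of members, 27 had a positive correlation of levels over these sums. The median r was 0.323, with a range of -0.378 to 0.848. After the mean of each gate was subtracted 24 were positive, with a median of 0.274 and a range of -0.553 to 0.855. The share of positive pairs among all genes was not determined, so these counts show no trait of the members.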
